A study of Mus musculus with 8 samples.

Results

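Bhlhe40 and Bhlhe41 are a pair of related genes on mouse chromosome 6 that encode transcription factors of the basic helix-loop-helix family. In the deposited table of acetylation of histone H3 at lysine 27 (H3K27ac), 24 of 129304 accessible regions carried one of them as the nearest gene. Of these, 5 were assigned to Bhlhe40 and 19 to Bhlhe41, by the gene name in the table. The pair of genes was picked with earlier results of these data known. H3K27ac was mapped by ChIP-seq (chromatin immunoprecipitation followed by sequencing) in brain nuclei of C57BL/6 mice aged 2 years, in wild-type animals (WT) and in animals labelled GrnKO, a knockout of the progranulin gene Grn. The sort kept nuclei with the myeloid factor PU.1 and without OLIG2, a mark of oligodendrocyte lineage cells, or NEUN, a mark of neurons. Each of the 2 replicates per genotype pooled nuclei of 2 mice, from which an H3K27ac library was made beside an input of unprecipitated chromatin. The labels give no further allele or treatment, and p-values rest on 2 pools per genotype.

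Bhlhe40 (also called DEC1) and Bhlhe41 (DEC2) bind the DNA motif CACGTG, an E-box, as dimers, and both mostly repress transcription. They belong to the circadian clock circuit, in which CLOCK and BMAL1 activate them and they act back on the same E-boxes. In macrophages and microglia they have been described as regulators of cell identity and of lipid and lysosomal genes, and E-boxes are also bound by the lysosomal factors TFEB, TFE3 and MITF. H3K27ac marks active promoters and enhancers, so its level at a gene describes regulatory chromatin and not the gene's RNA or protein.

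The Bhlhe41 promoter is printed here because the E-box of the family stands in it, inside the member region that changed least between the genotypes. RefSeq's promoter table for GRCm38.p6 matched 1 of the 2 genes, Bhlhe41. The stretch holds the 250 bases upstream of the start site, chr6:145865421-145865670 on the minus strand, written 5′ to 3′ with the E-box in capitals.

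Bhlhe41: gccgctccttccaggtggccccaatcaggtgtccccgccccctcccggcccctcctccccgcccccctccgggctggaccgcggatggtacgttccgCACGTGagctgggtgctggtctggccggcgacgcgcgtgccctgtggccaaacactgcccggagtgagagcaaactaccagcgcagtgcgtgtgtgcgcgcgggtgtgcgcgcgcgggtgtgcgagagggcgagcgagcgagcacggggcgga

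The E-box lay 153 to 148 bases upstream of the start site, at 145865568 to 145865573. CACGTG reads the same on both strands, and it was found in 1978 of 32851 promoter windows of the same length, or 6.02%. The Bhlhe41 stretch was 73.6% G and C, against a median of 52.4% over all windows. A match of these letters is a description of the sequence and not a measured binding site.

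All 4 H3K27ac libraries held between 15491642.5 and 20030832 tags, and the inputs between 4078179 and 14415969. Regions are 800 bp wide, and values are scaled tags, which are tags per 10000000 of the library, divided by a TMM factor (trimmed mean of M-values) that sets the bulk of regions equal between libraries. WT replicate 1 stood apart, with 49.4% of its tags in the listed regions against 63.3% to 65.7% in the other H3K27ac libraries. Its TMM factor was 0.825, and those of the others lay between 1.04 and 1.08. At Grn itself, 6 of 7 tested regions were called lower. The promoter region at chromosome 11, 102429909 to 102430709, held 294.35 and 310.85 tags as scaled by the authors in WT and 0 in both GrnKO libraries. The other region, in intron 7 (102434169 to 102434969), was called higher, at 0.782 and 6.02 scaled tags in WT against 33.4 and 46.1 in GrnKO. Tags on the Y chromosome and at Xist split the pools by replicate number: the 8 Y regions near start sites summed to 5.8 and 0.0 scaled tags in replicates 1 and to 269.6 and 220.2 in replicates 2 of WT and GrnKO.

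H3K27ac was higher over both genes in the GrnKO libraries. Over Bhlhe40 it rose to 1.97 times the WT level, and all 5 Bhlhe40 regions were called higher. Over Bhlhe41 it rose to 1.31 times the WT level as a sum, while none of its regions was called alone with genotype as the only term, and 4 were with the replicate number as a block. That block fit also called more over all 80728 tested regions, 7403 higher and 3988 lower, against 5488 and 2354 with genotype alone. Among all genes tested, 8.59% were called higher and 5.88% lower, or 14.5% in either direction, and in 54.8% the genotypes did not overlap.

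The sum over the 5 Bhlhe40 regions came to 539.7 (replicate 1) and 509 (replicate 2) scaled tags in WT, against 1092 (replicate 1) and 968 (replicate 2) in GrnKO. Values below follow the same order. Both GrnKO pools lay above both WT pools, and the gap between the genotypes was wider than the spread within either. The WT mean was 524 ± 22 and the GrnKO mean 1030.4 ± 87.6 (SD, n = 2). The log2 change was 0.97 (SE 0.12), with an adjusted p of 0.000165 by limma with Benjamini-Hochberg adjustment over 15380 genes, and its 95% interval ran from 1.64-fold to 2.35-fold. In the authors' scaling to library totals alone the sums were 445.40 and 526.77 in WT against 1181.11 and 1047.88 in GrnKO. The inputs summed to between 0 and 6.95.

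The sum over the 19 Bhlhe41 regions was 1428 and 1512 scaled tags in WT and 1881 and 1972 in GrnKO. The groups did not overlap here either. The means were 1469.7 ± 59.3 and 1927 ± 64.5 (SD, n = 2), and the log2 change was 0.39 (SE 0.09, adjusted p = 0.0124 by limma), with a 95% interval of 1.14-fold to 1.51-fold. In the authors' scaling the sums were 1178.38 and 1565.66 in WT against 2034.07 and 2134.21 in GrnKO, with inputs of 42.91, 68.43, 72.49 and 144.89. The Bhlhe41 call was lost without either GrnKO library (limma adjusted p = 0.104 at a log2 change of 0.42 without replicate 1, and 0.176 at 0.36 without replicate 2) and in the authors' scaling (0.0835). Without each of the 4 libraries in turn the log2 change of the Bhlhe40 sum was 0.89 to 1.06, past the threshold each time. Such a fit leaves 1 library in a genotype, which is assumed to vary like the pair of the other genotype (moderated by limma across genes), so its p-values depend on the spread of that pair and are no independent check. Gene calls over the whole table went from 1321 higher and 904 lower to 556 and 219 without GrnKO replicate 1 and 666 and 377 without replicate 2, but to 1863 and 1382, and 1992 and 1726, without WT replicate 1 or 2. When the change in the shallower inputs was subtracted, no gene in the table was called by limma (887 of 15380 had an unadjusted p under 0.05), and the log2 change was 0.78 for Bhlhe40 and -0.52 for Bhlhe41.

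**Figure D1:**
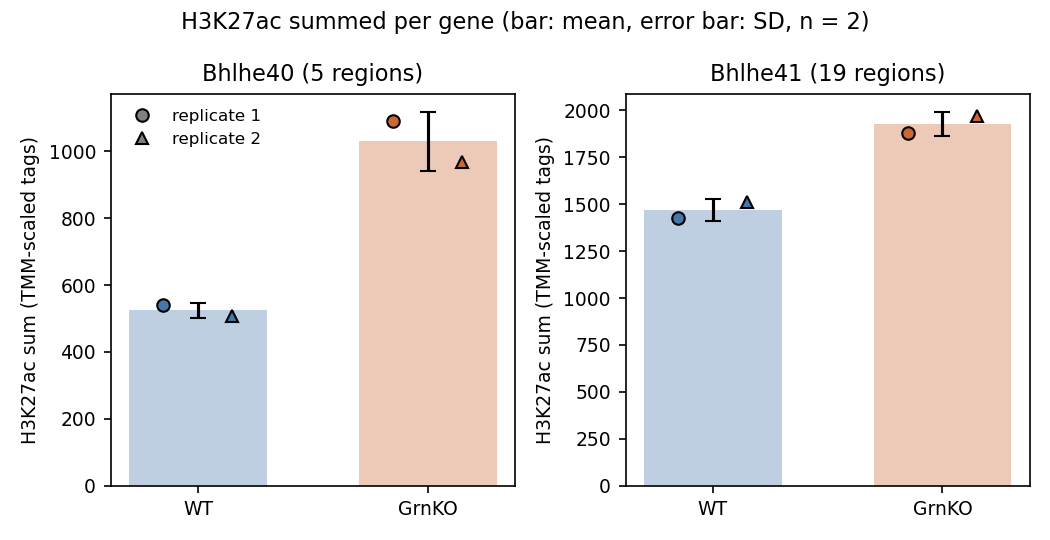
H3K27ac summed over the regions of each gene, in TMM-scaled tags (y axis, from 0), for the 2 WT and the 2 GrnKO pools. Bars are means, error bars SDs, and points the single libraries; the Bhlhe40 sums sit at 539.7 and 509 in WT against 1092 and 968 in GrnKO, and the Bhlhe41 sums at 1428 and 1512 against 1881 and 1972.

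Compared between libraries that share a replicate number, and so the Xist and Y signal, the fold for Bhlhe40 was 2.02 for replicates 1 and 1.90 for replicates 2. For Bhlhe41 it was 1.32 and 1.30. Samples with the same number are different mice.

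Bhlhe41 carried more H3K27ac than Bhlhe40 as a gene sum in every library, over more regions. Per region of 800 bp, the WT mean was 105 scaled tags for Bhlhe40 and 77.4 for Bhlhe41, and the GrnKO mean 206 and 101. The log2 ratio of the Bhlhe40 sum to the Bhlhe41 sum, in which the scaling of a library cancels, was -1.40 and -1.57 in WT against -0.78 and -1.03 in GrnKO. The ratio was closer to 0 in both GrnKO pools, a difference of 0.58 that gave an exact two-sided permutation p of 0.333. That is the smallest p that 2 libraries against 2 allow, so this test could not pass whatever the values. The 95% intervals of the sums, 1.64-fold to 2.35-fold for Bhlhe40 and 1.14-fold to 1.51-fold for Bhlhe41, did not overlap.

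The Bhlhe40 regions lay within a stretch of chromosome 6 from 108657748 to 108660957, at and just upstream of the start site at 108660629 on the plus strand (mm10). The gene itself runs from 108660629 to 108666925. Of all regions tested, 6.80% were called higher and 2.92% lower, or 9.71% in either direction, and in 52.7% the genotypes did not overlap. Against that background, 5 of 5 Bhlhe40 regions were called higher, with a median log2 change of 0.97 against -0.00 over all regions. They are not independent, since 3 of them overlap the region before them.

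The region centred 2481 bp upstream (108657748 to 108658548) had the lowest level and the largest change. It held 16 and 20.2 scaled tags in WT and 58.5 and 51.2 in GrnKO, a log2 change of 1.55 (SE 0.36, limma adjusted p = 0.00942). Its neighbour 2029 bp upstream (108658200 to 108659000) held 75.5 and 71.8 in WT and 184 and 171 in GrnKO, a log2 change of 1.26 (SE 0.20, limma adjusted p = 0.000651). In both, the genotypes were farther apart than the replicates of either. Both regions, and the next, are annotated to the first intron of the long noncoding RNA gene 0610040F04Rik, which runs antisense to Bhlhe40.

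The region 1126 bp upstream (108659103 to 108659903), in a CpG island, held 130.2 and 123 scaled tags in WT and 278 and 222 in GrnKO (log2 change 0.97, SE 0.18, limma adjusted p = 0.00198). The promoter region 609 bp upstream (108659620 to 108660420) had the highest level of the 5, at 190.4 and 189.9 in WT and 356 and 315 in GrnKO (log2 change 0.81, SE 0.15, limma adjusted p = 0.00216). The promoter region over the start site, centred 72 bp upstream (108660157 to 108660957), held 127 and 104 in WT and 215 and 209 in GrnKO (log2 change 0.88, SE 0.19, limma adjusted p = 0.00545). In none of the 5 regions did the genotypes overlap, and no input library held more than 5.35 tags in one, as scaled by the authors. Without GrnKO replicate 1 none of the 5 was called, while their log2 changes were still 0.72 to 1.46 and region calls over the whole table fell from 5488 to 1153 higher. Without GrnKO replicate 2, 3 were called.

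The regions within 1000 bp of the start site, which are the 2 promoter regions, held 58.9% and 57.8% of the Bhlhe40 sum in WT and 52.3% and 54.1% in GrnKO. The share was lower in both GrnKO pools, with means of 53.2% against 58.3% (a difference of -5.12 percentage points) and an exact two-sided permutation p of 0.333, the smallest possible.

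The Bhlhe41 regions were spread more widely, from 145845481 to 145893794 on chromosome 6, around a gene of the minus strand that runs from its start site at 145865420 down to 145858243. Of the 19 regions, 17 passed the filter on low values. With genotype alone in the fit, 0 were called by limma, and with the replicate number as a block, which also separates the Xist and Y signal, 4 were called higher. These lay at 4864, 2146, 1644 and 1230 bp downstream, with limma adjusted p-values of 0.0171, 0.0280, 0.0400 and 0.0410. The block fit called 7403 of all 80728 tested regions higher and 3988 lower, against 5488 and 2354 without the block. Of the 4 Bhlhe41 regions, those at 2146, 1644 and 1230 bp each overlap a neighbour among them. Without either WT library, with the spread taken from the GrnKO pair, 5 were called higher, while higher calls over all regions rose from 5488 to 8546 (without replicate 1) and 9666 (without replicate 2). In the fit with genotype alone, 9 were past an unadjusted p of 0.05, which 23.9% of all tested regions were. The fitted log2 change was above 0 in 17 of 17, against 49.9% of all tested regions, with a median of 0.57 and a range of 0.03 to 1.95. In 5 of the 17 (at 18687 bp downstream and at 81, 6259, 18397 and 27974 bp upstream) it fell below 0 without 1 of the libraries. The region 27974 bp upstream was lower in GrnKO by its group means (5.61 in WT and 4.64 in GrnKO), and edgeR (-0.18), DESeq2 (-0.21) and a pseudocount of 5 (-0.02) gave it a log2 change below 0. The genotypes did not overlap in 9 of them, each with GrnKO above WT, a share close to the 52.7% of all tested regions whose genotypes did not overlap in either direction. Of the 19 regions, 6 overlap the one before them.

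The most acetylated stretch lay over the promoter and the first part of the gene. The region over the start site, centred 81 bp upstream (145865101 to 145865901), holds the E-box printed above. It held 332 and 319 scaled tags in WT and 313 and 353 in GrnKO. The genotypes overlapped, and the log2 change was 0.03 (SE 0.14), with a 95% interval of 0.83-fold to 1.25-fold. That interval leaves out a change as large as the 1.97-fold of the Bhlhe40 sum.

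The second promoter region, 817 bp upstream (145865837 to 145866637), held 299 and 361 in WT and 379.6 and 459 in GrnKO (log2 change 0.35, SE 0.15, limma adjusted p = 0.150). The CpG island region 1315 bp upstream held 116 and 138 in WT and 159 and 182 in GrnKO (log2 change 0.43). In these 2 regions the GrnKO values were both above the WT values, and neither passed the adjusted threshold.

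Downstream of the start site, 3 overlapping regions lay over exons of the gene. The region at 1230 bp held 185 and 239.9 in WT and 272 and 300.1 in GrnKO, and the region at 1644 bp held 169 and 212 against 255 and 267. The region at 2146 bp (145862874 to 145863674), in the last exon, held 172 and 179 in WT and 250.0 and 246 in GrnKO, a log2 change of 0.50 (SE 0.16, limma adjusted p = 0.0600). The genotypes were apart in all 3, with log2 changes of 0.44, 0.46 and 0.50.

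Farther down, over the 3′ end of the gene and beyond, levels were low and folds larger but imprecise. The smallest adjusted p of any Bhlhe41 region was 0.0538 by limma, in the region 4864 bp downstream (145860156 to 145860956), annotated to the 3′ UTR. It held 29.3 and 19.4 scaled tags in WT and 66.8 and 43.1 in GrnKO, a log2 change of 1.14 (SE 0.36). The region at 5374 bp held 16.4 and 6.29 in WT and 47.0 and 14.8 in GrnKO, so that GrnKO replicate 2 lay below WT replicate 1. The region at 6664 bp had the largest log2 change, 1.95 (SE 0.77), from 3.52 and 2.10 in WT to 10.2 and 17.8 in GrnKO, where the WT values are close to the limit of 3 tags (1.94 and 1.63 in the authors' scaling).

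Some regions held as many or more tags in an input. At the regions 7789 and 8207 bp downstream, the input of GrnKO replicate 2 held 53.06 tags as scaled by the authors in each, more than the H3K27ac library of the same pool, with 11.73 and 18.22. The scaled H3K27ac values were 5.08 and 4.45 against 17.0 and 10.8 at 7789 bp, and 14.5 and 6.02 against 12.4 and 16.8 at 8207 bp. At 9497 bp they were 22.3 and 6.55 in WT against 33.4 and 23.8 in GrnKO, with an input of 23.47 in GrnKO replicate 2. H3K27ac in that pool was thus below its input at the first 2 of these regions, and close to it at the third (25.71 in the authors' scaling).

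The remaining Bhlhe41 regions were faint. The tested ones at 10586 and 18687 bp downstream and at 6259, 18397 and 27974 bp upstream had values between 1.05 and 18.8 scaled tags, and the genotypes overlapped in each. At 27974 bp upstream the WT inputs held 25.75 and 11.76 tags as scaled by the authors, more than the 8.39 and 1.09 of the WT H3K27ac libraries. The 2 untested regions, 19539 bp downstream and 12153 bp upstream, held between 0 and 4.53 and between 0.524 and 11.3 scaled tags. Nothing could be told about H3K27ac there at this depth.

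**Figure D2:**
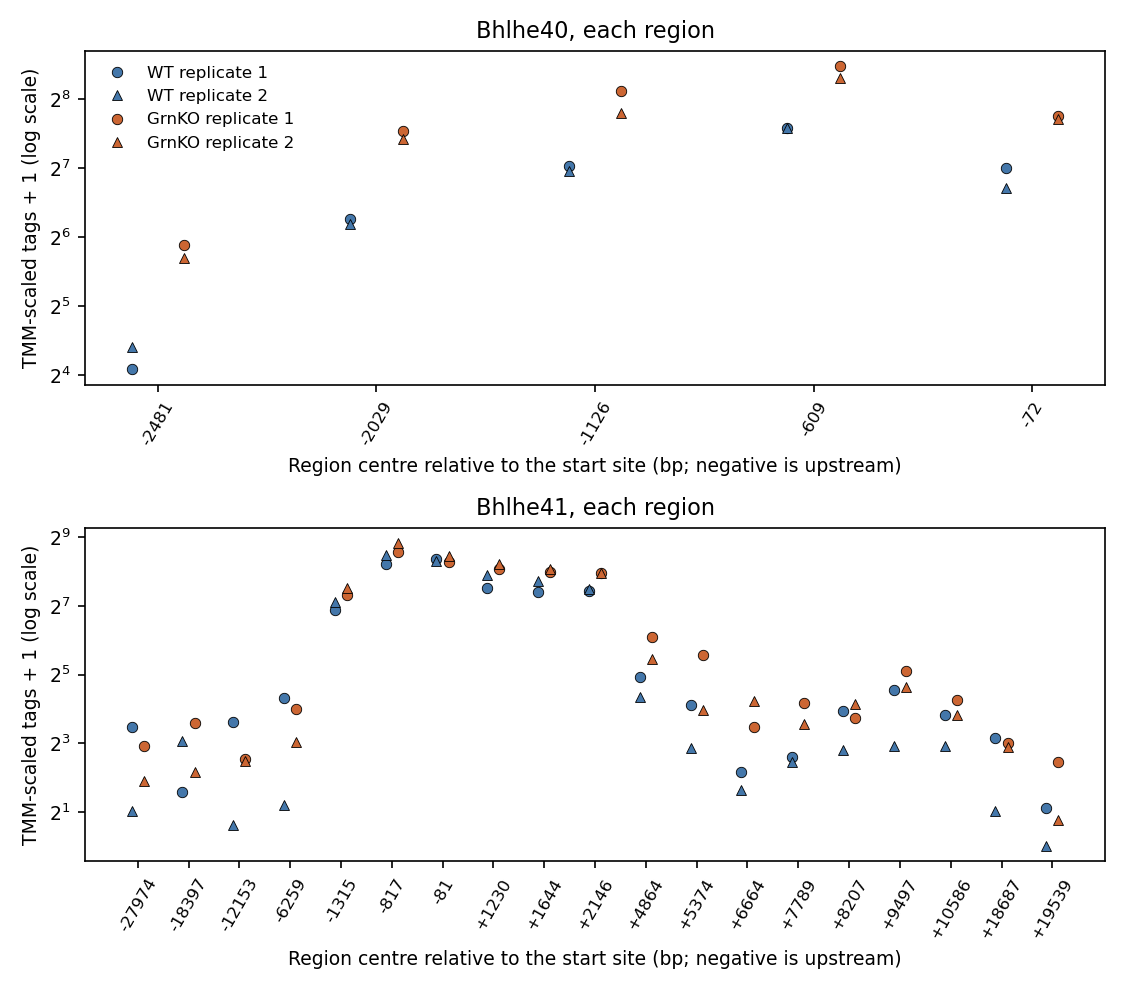
H3K27ac in every region of Bhlhe40 (upper panel) and Bhlhe41 (lower panel), ordered by the distance of the region's centre from the start site in bp, on a log axis of TMM-scaled tags + 1. Circles are replicates 1 and triangles replicates 2, WT in blue and GrnKO in orange; the genotypes are apart in 5 of 5 Bhlhe40 regions and overlap at the Bhlhe41 start site (81 bp upstream), while points near the bottom of the lower panel scatter within a genotype.

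The change was smaller where the level was higher. Over the 17 tested Bhlhe41 regions the Spearman correlation of the WT level with the log2 change was -0.60, as a description, since all points share the same 4 libraries and WT values enter both measures. In the Bhlhe40 stretch the order ran likewise, from a WT mean of 18.1 and a log2 change of 1.55 at the far edge to 190.2 and 0.81 at the promoter. The promoter share of the Bhlhe41 sum, from the regions within 1000 bp, was 44.2% and 44.9% in WT and 36.8% and 41.2% in GrnKO. It was lower in both GrnKO pools, with a difference of -5.60 percentage points between the means and an exact two-sided permutation p of 0.333.

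Accessible regions assigned to other genes also lay within 100 kb of either start site. Around Bhlhe40, 17 of them were tested, 5 were called higher and 0 lower, and around Bhlhe41, 10 were tested, 3 were called higher and 0 lower, where 6.80% of all tested regions were called higher and 2.92% lower. Of the 5 around Bhlhe40, only the region 89.2 kb upstream kept its call without each library in turn. Around Bhlhe41 the called Rassf8 regions kept theirs, and the Sspn region did not. The start site of 0610040F04Rik lies 305 bp downstream of that of Bhlhe40, on the opposite strand (gene from 108577036 to 108660934), so the promoters cannot be told apart by regions of this width. The sum over all its regions was 289.8 and 195 scaled tags in WT and 585 and 473 in GrnKO. It was higher in both GrnKO pools, with a log2 change of 1.14 (SE 0.19, limma adjusted p = 0.00137).

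A called region of 0610040F04Rik lies inside the Bhlhe40 gene body, 1116 bp downstream of the start site (108661345 to 108662145). It held 29.3 and 22.3 scaled tags in WT and 72.7 and 48.0 in GrnKO, a log2 change of 1.18 (limma adjusted p = 0.0353). The call was lost without either GrnKO library, with limma adjusted p-values of up to 0.549, with DESeq2 (0.0695) and with no filter on low tags (0.0616).

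Away from the gene, the strongest called region near Bhlhe40 stood 89.2 kb upstream (108571007 to 108571807). Its values were 25.4 and 8.64 in WT against 106 and 81.4 in GrnKO, or 5.51-fold, with a log2 change of 2.56 (SE 0.41, limma adjusted p = 0.000568). Without each library in turn it ranged from 1.83 to 3.29. Another called region, 90.1 kb upstream, held 15.6 and 16.5 in WT and 55.7 and 33.5 in GrnKO (log2 change 1.37). Its call was lost without either GrnKO library, at log2 changes of 1.01 and 1.73. DESeq2 (adjusted p = 0.0708) and limma with no filter on low tags (0.0705) also did not call it. A pair of overlapping regions stood 58.4 and 58.7 kb downstream, and the second (108718960 to 108719760) held 26.2 and 15.5 in WT and 88.2 and 66.9 in GrnKO (log2 change 1.88, limma adjusted p = 0.00186). The genotypes were apart in both. The call at 58.7 kb was lost without GrnKO replicate 1, at a log2 change of 1.68. The region at 58.4 kb held 24.2 and 16.2 in WT and 65.1 and 58.8 in GrnKO (log2 change 1.59). Its call was lost without either GrnKO library, at log2 changes of 1.52 (without replicate 1) and 1.66 (without replicate 2). Arl8b, which encodes a small GTPase that moves lysosomes along microtubules, lies farther downstream, and its sum was 249 and 247 in WT and 383 and 403 in GrnKO (log2 change 0.66, limma adjusted p = 0.0101; 0.101 and 0.140 without GrnKO replicate 1 or 2).

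Around Bhlhe41 the largest change was also distal. A pair of overlapping regions assigned to Rassf8, a gene of the RAS association domain family, stood 62.4 and 62.8 kb downstream of the Bhlhe41 start site. The nearer one (145802637 to 145803437) held 20.3 and 17.0 scaled tags in WT and 118 and 120.0 in GrnKO, or 6.38-fold, with a log2 change of 2.61 (SE 0.30, limma adjusted p = 2.66e-05). The other (145802257 to 145803057) held 10.9 and 11.8 in WT and 115 and 64.6 in GrnKO (log2 change 2.82, SE 0.38, limma adjusted p = 0.000115). The genotypes were far apart in both. The Rassf8 sum did not pass (518 and 455 in WT, 640.4 and 553 in GrnKO, log2 change 0.29, limma adjusted p = 0.192). On the other side, 1 intronic region of Sspn, which encodes the membrane protein sarcospan, was called 88.3 kb upstream, at 14.1 and 22.8 in WT and 47.5 and 41.5 in GrnKO (log2 change 1.26, limma adjusted p = 0.0463). That call was lost without either GrnKO library or WT replicate 1 (up to 0.457), with edgeR (0.0563), with DESeq2 (0.122) and with no filter on low tags (0.0842).

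**Figure D3:**
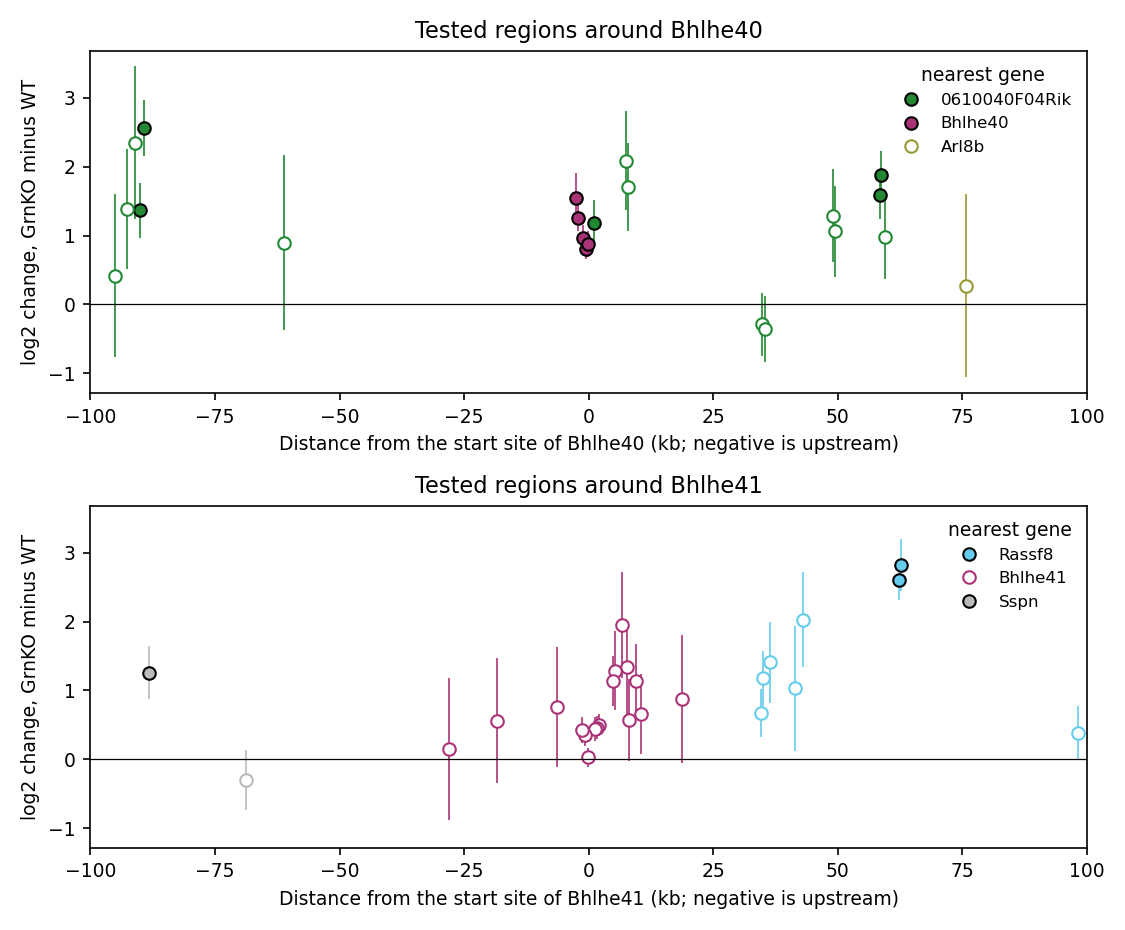
Log2 change, GrnKO minus WT (y axis), of every tested region within 100 kb of the start site of Bhlhe40 (upper panel) and Bhlhe41 (lower panel) against its distance in kb; error bars are SEs and colours the nearest gene. Filled points passed the limma threshold: the 5 Bhlhe40 regions and 5 of 0610040F04Rik above, and 2 of Rassf8 and 1 of Sspn below, where no Bhlhe41 region passed.

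Other genes of the clock circuit were called at about the rate of all genes. Of 20 clock genes, all tested, 2 were called higher, 1 lower and 17 neither, where 8.59% of all genes were called higher and 5.88% lower, with a median log2 change of -0.06 against -0.0462 over all genes (0.16 against 0.18 in the authors' scaling). Per2, a repressor of CLOCK and BMAL1, had the largest rise, from 48.1 and 79.1 scaled tags in WT to 289 and 220.1 in GrnKO (log2 change 2.01, SE 0.26, limma adjusted p = 0.000231). Dbp, a clock output activator, rose from 401 and 484 to 554 and 1004 (log2 change 0.76, limma adjusted p = 0.0304). Both exceeded WT in both GrnKO pools, but the Dbp call was lost without GrnKO replicate 2, when its log2 change was 0.33 (limma adjusted p = 0.474).

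In the other direction, Hlf, a relative of Dbp, fell from 778 and 967 to 592 and 627 (log2 change -0.51, limma adjusted p = 0.0193). That call was lost without either GrnKO library (limma adjusted p up to 0.177). The activators of both members did not pass the threshold, Clock at 156 and 118 in WT and 108 and 120.2 in GrnKO and Arntl, which encodes BMAL1, at 184 and 179 against 193 and 118. In WT replicate 1 the Arntl input held 213.33 tags as scaled by the authors, more than the 152.02 of H3K27ac.

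Among genes of other factors that bind E-boxes, 22 of 23 were tested, and 7 were called higher, 2 lower and 13 neither, with a median log2 change of 0.18. Over all genes 8.59% were called higher and 5.88% lower, with a median of -0.0462, and in the authors' scaling the medians were 0.40 for the list and 0.18 for all genes. Hif1a, the hypoxia factor, rose from 1436 and 1575 scaled tags in WT to 2655 and 2637 in GrnKO (log2 change 0.82, SE 0.09, limma adjusted p = 6.50e-05). Tfec, a relative of Mitf expressed in macrophages, rose from 413 and 332 to 960.0 and 817 (log2 change 1.26, SE 0.15, limma adjusted p = 9.05e-05). As scaled by the authors, its inputs held 230.50 and 133.13 in WT, against 340.51 and 343.68 in H3K27ac. In GrnKO they held 182.09 and 223.46, against 1037.99 and 883.64. Epas1, which encodes the hypoxia factor HIF-2alpha, rose from 95 and 81.7 to 226 and 208 (log2 change 1.29, limma adjusted p = 0.00108), though its input reached 222.44 in GrnKO replicate 2 as scaled by the authors.

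The other 4 that were called higher, named here after their values were seen, were Tfeb, Mitf, Max and Arnt2, with log2 changes of 0.34, 0.35, 0.39 and 0.51. Each of these 4 lost its call without either GrnKO library, at log2 changes from 0.31 (Mitf) to 0.56 (Arnt2). Mlxipl, which encodes the glucose-responsive factor ChREBP, fell from 612 and 768 to 459 and 467 (log2 change -0.56, limma adjusted p = 0.0155), and Mxd4, a MAX partner that opposes MYC, from 809.5 and 714 to 537 and 555 (log2 change -0.48, limma adjusted p = 0.0212). These also lost their calls without either GrnKO library, at log2 changes of -0.55 and -0.58 for Mlxipl and -0.45 and -0.50 for Mxd4. With the authors' scaling, 4 E-box factor genes were called higher and 0 lower.

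The closest relatives of the members are the Hes and Hey genes, counted here together with Helt. They are mostly repressors with the same Orange domain, and some of them act downstream of Notch. Only 6 of 10 were tested, and 1 was called higher and 2 lower, with a median log2 change of -0.43. All genes had a median of -0.0462, with 8.59% called higher and 5.88% lower. Hey1 rose from 255 and 168 scaled tags in WT to 996 and 750.5 in GrnKO (log2 change 2.06, SE 0.20, limma adjusted p = 2.13e-05). In WT replicate 2 the Hey1 input held 139.01 tags as scaled by the authors, against 173.60 in H3K27ac. Its other inputs held 1.23 in WT replicate 1 and 37.46 and 33.67 in GrnKO. Hes2 fell from 404 and 402 to 279 and 258 (log2 change -0.59, limma adjusted p = 0.0184), and Hes7 from 406 and 305 to 193 and 263 (log2 change -0.64, limma adjusted p = 0.0438). The Hey1 call held without each library. Hes2 lost its call without either GrnKO library (up to 0.190 by limma), and Hes7 without WT replicate 1 or GrnKO replicate 1 (up to 0.445).

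Of genes described as repressed by the members, neither passed the test with all 4 libraries. Il10, which encodes an anti-inflammatory cytokine and is described as a target of Bhlhe40 in lymphocytes, had 272 and 172 scaled tags in WT and 193 and 155 in GrnKO (log2 change -0.32, limma adjusted p = 0.412). Maf, a macrophage identity factor, had 5055 and 5414 in WT and 5631 and 5727 in GrnKO (log2 change 0.12, limma adjusted p = 0.310). The genotypes overlapped for Il10 and were narrowly apart for Maf. In WT replicate 1 the Il10 input held 197.39 tags as scaled by the authors, close to the 224.64 of H3K27ac in that pool. The Il10 value rested on the WT pools: its log2 change was -0.65 without WT replicate 2 (limma adjusted p = 0.0106) and 0.01 without WT replicate 1 (0.990).

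The E-box CACGTG stood in a RefSeq promoter window of 4 of the 17 clock genes with an entry: Ciart, Cry1, Per1 and Tef. Among the 20 E-box factor genes with an entry it stood in 5, which were Hif1a, Mlx, Mlxipl, Mnt and Mxd4. Genes can have several windows, and by window it stood in 5 of 25 and 5 of 31, against 6.02% of all windows. It stood in 0 of 5 Hes and Hey genes and in 6.86% of all genes with an entry. None of these 4 clock genes was called, where 14.5% of all genes were called in either direction. Of the 5 E-box factor genes, Hif1a was called higher, Mxd4 and Mlxipl lower, and Mlx and Mnt neither.

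**Figure D4:**
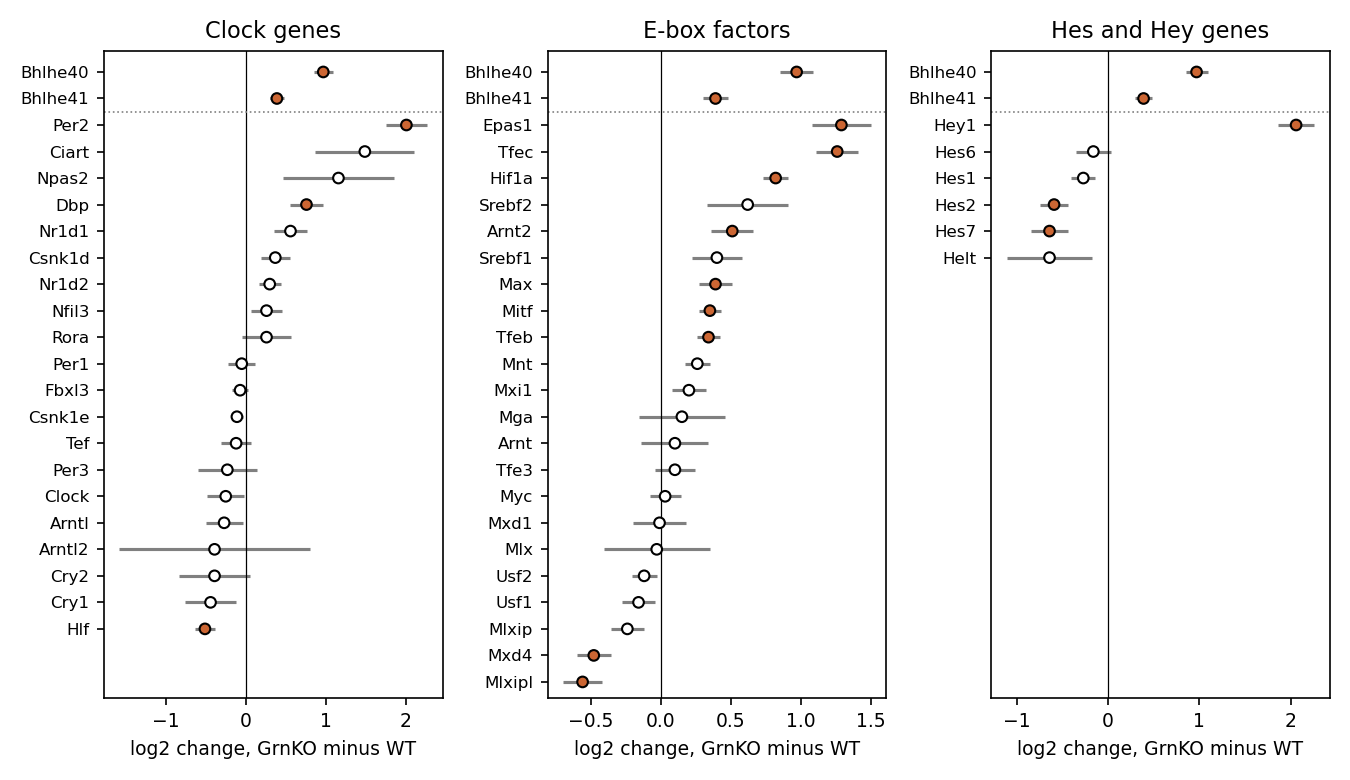
Log2 change, GrnKO minus WT (x axis), of the summed H3K27ac of each tested clock gene, E-box factor gene and Hes or Hey gene, with Bhlhe40 and Bhlhe41 above the dotted line in each panel; error bars are SEs and filled points passed the limma threshold. Per2 (2.01) and Hey1 (2.06) lie farther to the right than Bhlhe40 (0.97), and the clock genes lie on both sides of 0.

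The genes whose log2 sums over the 4 libraries ran closest to Bhlhe40, each centred on its own mean, were Gm3414, Psmd13 and Raph1, at Euclidean distances of 0.02, 0.04 and 0.05. For Bhlhe41 they were Zhx2, Ttc5 and Cyba, a subunit of the phagocyte NADPH oxidase, each at 0.02. Over so few libraries such a likeness is common, since 104 genes lay within 0.2 of Bhlhe40 and 606 within 0.2 of Bhlhe41. The members lay 0.62 from each other, which placed Bhlhe41 at rank 1681 among the neighbours of Bhlhe40.

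Markers of the sorted and of other cells moved with genotype as well. The 8 microglia markers summed to 50479 and 55219 scaled tags in WT and 41078 and 43566 in GrnKO, and 6 of them were called lower. The 6 border macrophage markers summed to 1084 and 1054 in WT and 1406 and 1318 in GrnKO (Ms4a7 called higher), and the 3 markers of blood vessel cells to 595 and 502 against 1016 and 1004. Flt1 was the called blood vessel marker, at means of 459.9 and 887, while Cldn5 (means of 21.7 and 23.6) and Pdgfrb (79.4 and 55.0 in WT, 116 and 84.2 in GrnKO) were not called. Of the border macrophage markers, Ms4a7 went from a mean of 158 to 485, while Lyve1 (44.2 and 24.1), Cd163 (113 and 106), Cbr2 (256 and 218) and Pf4 (53.0 and 52.3) were not higher in GrnKO. Mrc1 had 433 and 456 in WT and 483 and 470.4 in GrnKO, and was not called. Monocyte markers summed to 691 and 639 against 507 and 419 (Ccr2 called lower), neuron markers to 219 and 272 against 178 and 151 (Syt1 called lower), oligodendrocyte markers to 1985 and 1996 against 2502 and 2644 (Mbp called higher and Mog lower), and astrocyte markers to 3502 and 3452 against 3214 and 3267. Mbp made up most of the oligodendrocyte sum (means of 1798 in WT and 2489.8 in GrnKO), while Mog went from 174 to 69.8. Slc1a3 made up most of the astrocyte sum (3384 and 3151), while Slc1a2 went the other way (33.4 and 56.9) and was not called. Neutrophil markers did not exceed 34.5 (S100a8 called higher, while Ngp, at 25 and 17.8 against 10.7 and 10.6, was not called) and T and B cell markers 6.02. Only 3 of 4 neutrophil, 5 of 6 oligodendrocyte and 2 of 4 T and B cell markers had a region. No marker with a region was at 0 in every library. Their part in the results for Bhlhe40 and Bhlhe41 was not tested, and in pooled nuclei fewer cells of a type and less H3K27ac per cell cannot be told apart.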

How the data were processed

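The authors' deposited table gives a signal per region: tags of each library, scaled by the authors to 10000000 per library per the file headers. Per the submitters' processing notes, Bowtie2, HOMER, DESeq2 and mm10 were used; versions and duplicate handling are not given in the sources used here. Columns were matched to samples by title. Multiplying by the library totals returned whole read ends for 100.0% of values (tolerance 0.005 scaled tags, 2 ends per tag). Regions were kept by edgeR 4.0.16 filterByExpr (minimum 10), which left 80728, and gene sums likewise, which left 15380. Values were divided by TMM factors and tested, two-sided, with limma 3.58.1 in R 4.3.3 (lmFit, eBayes with trend, genotype only) on log2(value + 1), with Benjamini-Hochberg adjustment at 0.05; this scale understates changes of low regions. edgeR's quasi-likelihood test and DESeq2 1.42.0 on recovered tags were alternatives. Scripts were tested on simulated data. 170 regions without a gene name entered no sum. Reads carry no molecular identifiers, so the limit of 3 tags covers counting error only. Genes named were the members, the called genes with the smallest p in each list (at most 3 per direction), the 3 closest profiles per member, genes within 100 kb, and Grn. Il10 and Maf, as the whole of a short list, and the cell type markers were named too. Outside this rule were Clock, Arntl, the other called E-box factors and the genes with an E-box in the promoter. The members and lists were chosen with earlier results of these data known. A gene of the clock list is not reported here and was left out of that list's counts.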

Additional observations from a re-analysis of the deposited data

How the results depend on the processing

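In 810 of 1006 comparisons with another setting, a tested value kept its direction and side of the threshold, a count stayed within 1.5 times, a list's median moved by under 0.1 (log2), or another untested value moved by less than the spread between libraries. The settings for the gene lists, and TMM factors from gene sums, were chosen after seeing the data. Under the authors' scaling the median log2 change of all regions moved to 0.22 and 95.2% of region calls were higher against 70.0% (genes 0.18, and 90.8% against 59.4%); the Bhlhe41 sum was 0.62, 1 Bhlhe41 region was called higher, and the lists had 4 and 0 (clock, higher and lower), 4 and 0 (E-box factors) and 0 Hes and Hey genes lower. Subtracting the input effect called 0 of 80728 regions and 0 genes by limma (6113 and 887 at an unadjusted p under 0.05), so 0 Bhlhe40 regions and 0 genes of any list; the Bhlhe40 sum was 0.78, the Bhlhe41 sum -0.52, and the inputs are shallow. A pseudocount of 5 called 1 Bhlhe41 region, DESeq2 called 1 clock gene higher, non-overlapping regions left 1 E-box factor lower, and no filter left 1 Hes or Hey gene lower. The cause was not tested.

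Without each library in turn, the Bhlhe40 sum ranged from 0.89 to 1.06, the Bhlhe41 sum from 0.35 to 0.43, the Bhlhe40 regions called higher from 0 to 5 and the Bhlhe41 regions from 0 to 5 (5 without WT replicate 1 and 5 without WT replicate 2). Clock genes ranged from 1 to 4 higher and 0 to 3 lower, E-box factors from 3 to 9 higher and 0 to 3 lower, and Hes and Hey genes from 0 to 2 lower. Over all regions, 1153 were higher and 198 lower without GrnKO replicate 1, and 1464 and 416 without GrnKO replicate 2, against 5488 and 2354.

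With the replicate number as a block, the Bhlhe40 sum was 0.97 (limma adjusted p = 2.05e-06), the Bhlhe41 sum 0.39 (0.00219), 4 Bhlhe41 regions were called higher, and 7403 regions were higher and 3988 lower. The numbers do not pair mice, and deviations of same-numbered libraries correlated at 0.0344.

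Some directions turned. Less the input effect, the Bhlhe40 region 72 bp upstream was at -0.20, the Bhlhe41 regions 18687, 8207, 7789 and 2146 bp downstream at -0.09, -0.68, -2.72 and -0.31, the 0610040F04Rik region starting at 108570118 at -0.50, and the sums of Hlf at 0.47, Epas1 -2.08, Max -0.70, Maf -1.08, Il10 0.93, Rassf8 -0.93, Sspn -1.06, Psmd13 -0.56, Raph1 -0.32, Zhx2 -1.62 and Ttc5 -1.62. The Bhlhe41 region 27974 bp upstream was at -0.18 (edgeR), -0.21 (DESeq2) and -0.02 (pseudocount 5). Without each library in turn, values that turned ranged from -1.07 to 1.40 there, from -0.19 to 1.31 at 18397 bp upstream, from -0.79 to 2.34 at 6259 bp upstream, from -0.18 to 1.95 at 18687 bp downstream, from -0.06 to 0.12 at 81 bp upstream and from -0.65 to 0.01 for Il10. The share of the Bhlhe40 sum within 2500 bp gave no value to compare, since all its regions lie there. At this depth the Bhlhe41 regions close to 3 tags are imprecise.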
